A study of Capra hircus with 3 samples.

Results

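The cells described here are the endothelial cells of hair follicles dissected from the back skin of Cashmere goat fetuses at embryonic day 120 (E120). Members were selected on measured values: a cell of the E120 library was taken when at least 4 of 13 endothelial symbols had a value above 0 in it. The symbols were PECAM1, CDH5, KDR, TIE1, TEK, EGFL7, ESAM, CLDN5, VWF, PLVAP, EMCN, ECSCR and FLT1, and 12 of them are in the table (ECSCR is not among its symbols). The rule found 375 members among 6896 E120 cells, of 20676 cells in all 3 libraries. Because these 12 genes chose the members, their levels are given as a description.

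The study profiled fetal dorsal skin of the Northern Shaanxi White Cashmere Goat with the 10x Genomics 3′ v3 droplet kit at E60, E90 and E120, described by its submitters as induction, organogenesis and cytodifferentiation of the hair follicle. At E60 and E90 whole skin was dissociated with collagenase IV. At E120 follicles were picked out with forceps after collagenase and then dissociated with TypLE Express, so stage and dissociation cannot be told apart. Each stage is 1 library pooled from at least 2 fetuses with no map from cells to fetuses, so there is no replicate, no test between stages, and every interval below covers counting error only. The series text states 19705 cells and the deposited table holds 20676 barcodes; no filter that links the 2 numbers is given in the sources used here.

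Endothelial cells line the inside of all blood and lymphatic vessels. Vascular endothelial growth factor (VEGF), acting on its receptors at the endothelial surface, drives sprouting; Notch ligands and receptors divide sprouting cells into leading and trailing cells and help set arterial identity; angiopoietins and mural cells (pericytes and smooth muscle) stabilise the new tube. In skin, a capillary network surrounds each growing follicle and a capillary loop can enter the dermal papilla, the signalling mesenchyme at the follicle base. The hair shaft cells of a follicle make hair keratins in very large amounts, so the level of hair keratin RNA in the endothelial cells is given beside their own genes.

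All levels below are in CPM: the unique molecular identifier (UMI) counts of a gene summed over the cells of a group, per 1000000 UMIs of that group. Ratios are log2 of CPM + 1 in one group over the other. A gene was tested when it had at least 10 CPM in either group, and it is called higher or lower when that log2 ratio was at least 1 in size. "Other E120 cells" are the 6521 cells that did not meet the rule, mostly follicle epithelium.

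E120 cells fell into a large set with almost no rule genes and a separate set with many. In the E120 library 5807 cells had none of the rule genes, 666 had 1, 38 had 2 and 10 had 3. Above the threshold, 14 cells had 4, 28 had 5, 80 had 6, 100 had 7, 81 had 8, 52 had 9, 15 had 10 and 5 had 11, and the median member had 7. The 10 cells just outside had a summed rule-gene level of 856 CPM with PLVAP at 499 CPM, and the 14 cells just inside had 2498 CPM with PLVAP at 1650 CPM. Hair keratins summed to 7277 CPM in those 10 cells, 9745 CPM in those 14 and 845 CPM in the 28 cells with 5 rule genes. At E90 the same count declined without a gap, from 59 cells with 3 rule genes to 23 with 4 and 14 with 5, so the E90 cells that meet the rule are less clearly a class of their own.

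**Figure D1:**
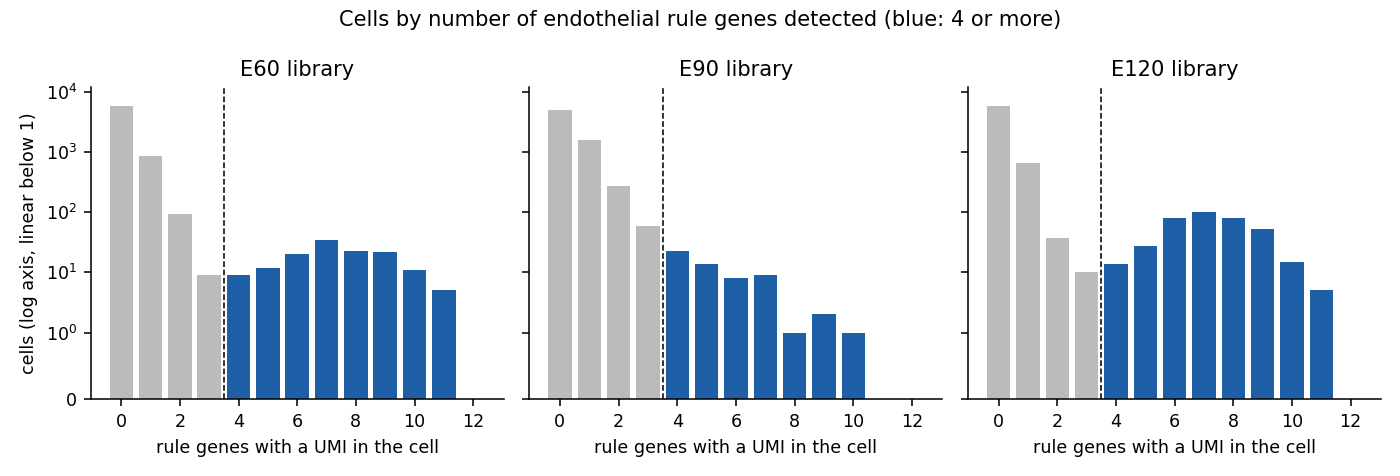
Number of cells (vertical, log axis that is linear below 1) by the number of rule genes with a UMI in the cell (horizontal), in each library; blue bars meet the rule. At E120 the count drops to 10 cells at 3 genes and peaks again at 100 cells at 7 genes, and the E90 counts show no second peak.

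Members made up 5.44% of E120 cells (exact 95% binomial interval 4.91 to 5.9995). By the same rule 136 of 6849 E60 cells (1.99%, 1.67 to 2.34) and 58 of 6931 E90 cells (0.837%, 0.636 to 1.08) were taken. Depth differs between libraries and acts on a rule that counts detected genes, so every cell was also thinned to 2000 UMIs; the rule then took 285 E120 cells (4.13%), 88 E60 cells (1.28%) and 32 E90 cells (0.462%). E120 had the largest share on both counts, in a library of picked follicles rather than whole skin.

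The 375 members hold 3103482 UMIs, with a median of 6493 per cell (lowest 2488, highest 44964), against a median of 13448 in the other E120 cells. Mitochondrially encoded transcripts were 3.70% of UMIs in the median member and 5.32% in the median other cell. E60 cells meeting the rule were deeper (median 16131 UMIs), and E90 cells were shallower (median 3610.5), so E90 levels rest on 251214 UMIs and a gene at 0 there is limited only to below 11.9 CPM. Between the libraries, 9 to 13 cell barcodes recur per pair, of which 1 or 2 belong to a cell meeting the rule. A doublet caller run on each library marked 29 members (7.73%) and 1.24% of the other E120 cells. It also marked 14 of the 136 E60 cells meeting the rule (10.3%). Of the 29 marked members, 28 lie in 1 sub-cluster described below, and main levels that rest on that sub-cluster are also given without it.

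Summed over the 12 rule genes, members had 5915 CPM and the other E120 cells 11.4 CPM, a gap that the selection itself set. The label was checked on other genes. Over 25 further endothelial genes that the rule did not use, the sum was 3943 CPM in members against 167 in the other cells and 245 in mural cells. Mural cells here are the 62 E120 non-members with at least 4 detected mural markers. Dermal cells below are the 237 E120 non-members with at least 4 detected dermal markers. The classes share 29 cells, so mural and dermal levels rest in part on the same cells.

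Among the rule genes, PECAM1, an adhesion molecule of endothelial junctions, had 693 CPM in members (95% Poisson interval 664 to 723) and 0.731 in the other E120 cells. CDH5, the cadherin of endothelial junctions, had 69.3 CPM (60.3 to 79.2) against 0.0664. PLVAP, which forms the diaphragms of fenestrae and caveolae, had 3251 CPM against 5.44 and was seen in 98.1% of members. EMCN, a sialomucin of capillary and venous endothelium, had 150 CPM, the secreted EGFL7 had 60.3 CPM and VWF, the platelet-binding clotting protein, had 216 CPM. CLDN5, the claudin of tight endothelial barriers, was seen in only 27 of 375 members (7.20%), at 10.6 CPM. ESAM, a junctional adhesion molecule, was the one rule gene with a high level in mural cells, 318 CPM beside 640 CPM in members.

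Of 6088 genes tested, 1419 (23.3%) were higher in members than in the other E120 cells and 648 (10.6%) were lower, with a median log2 ratio of 0.13. The second count was 1051 with the 57 cells of sub-cluster 4 left out, and 1704 genes were then higher. This contrast is the one the rule used, so these shares are printed as background and the genes that follow are a description of what the selected cells hold.

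The 25 genes outside the rule with the largest ratios, among those with at least 100 CPM in members, ran from a log2 ratio of 6.47 to 8.68. SPARCL1, a matricellular glycoprotein of vessels, led with 1623 CPM (1579 to 1669) against 2.96, and was seen in 98.4% of members and 2.53% of other cells. ESM1, a secreted proteoglycan of sprouting endothelium, followed with 825 CPM (794 to 858) against 1.89, but in 44.5% of members. This is a gene carried by a minority of members at a high level, whereas SPARCL1 was near universal. At 2000 UMIs per cell the shares were 33.3% for ESM1 and 89.1% for SPARCL1, against 0.521% and 0.951% of other cells.

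Transport and surface proteins formed part of these 25. CLEC3B, a plasminogen-binding secreted lectin, had 3950 CPM against 30.0 in other cells; SLC2A3, a glucose transporter, had 1252 CPM against 11.4; ABCG2, an efflux pump, had 231 CPM against 0.642. CALCRL, the receptor that pairs with RAMP2 to bind adrenomedullin, had 274 CPM against 0.975. ROBO4, an endothelial guidance receptor, had 179 CPM, the membrane protein TM4SF18 had 148 CPM and the immunoglobulin-family protein CD200 had 164 CPM, each with less than 1 CPM in the other cells. ENG, the TGF-beta co-receptor of endothelium, had 435 CPM against 2.77.

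Another 5 of the 25 are transcription regulators. LMO2, a bridging protein of blood and endothelial transcription complexes, had 681 CPM against 2.31. SOX18, a factor of vascular development, had 803 CPM against 4.67, ETS1 had 336 against 1.96 and the homeobox gene MEOX1 had 210 against 0.354. MECOM, a zinc finger factor, had 122 CPM against 0.210 and was seen in 34.7% of members. The rest of the 25 were DEPP1 (2186 CPM), MYCT1, CLIC2, FAM167B, FAM13C, the phosphatase gene PTPRB, the secreted STC2, KANK3, APOLD1 and RND1, which apart from DEPP1 had between 112 CPM (PTPRB) and 392 CPM (RND1) in members.

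**Figure D2:**
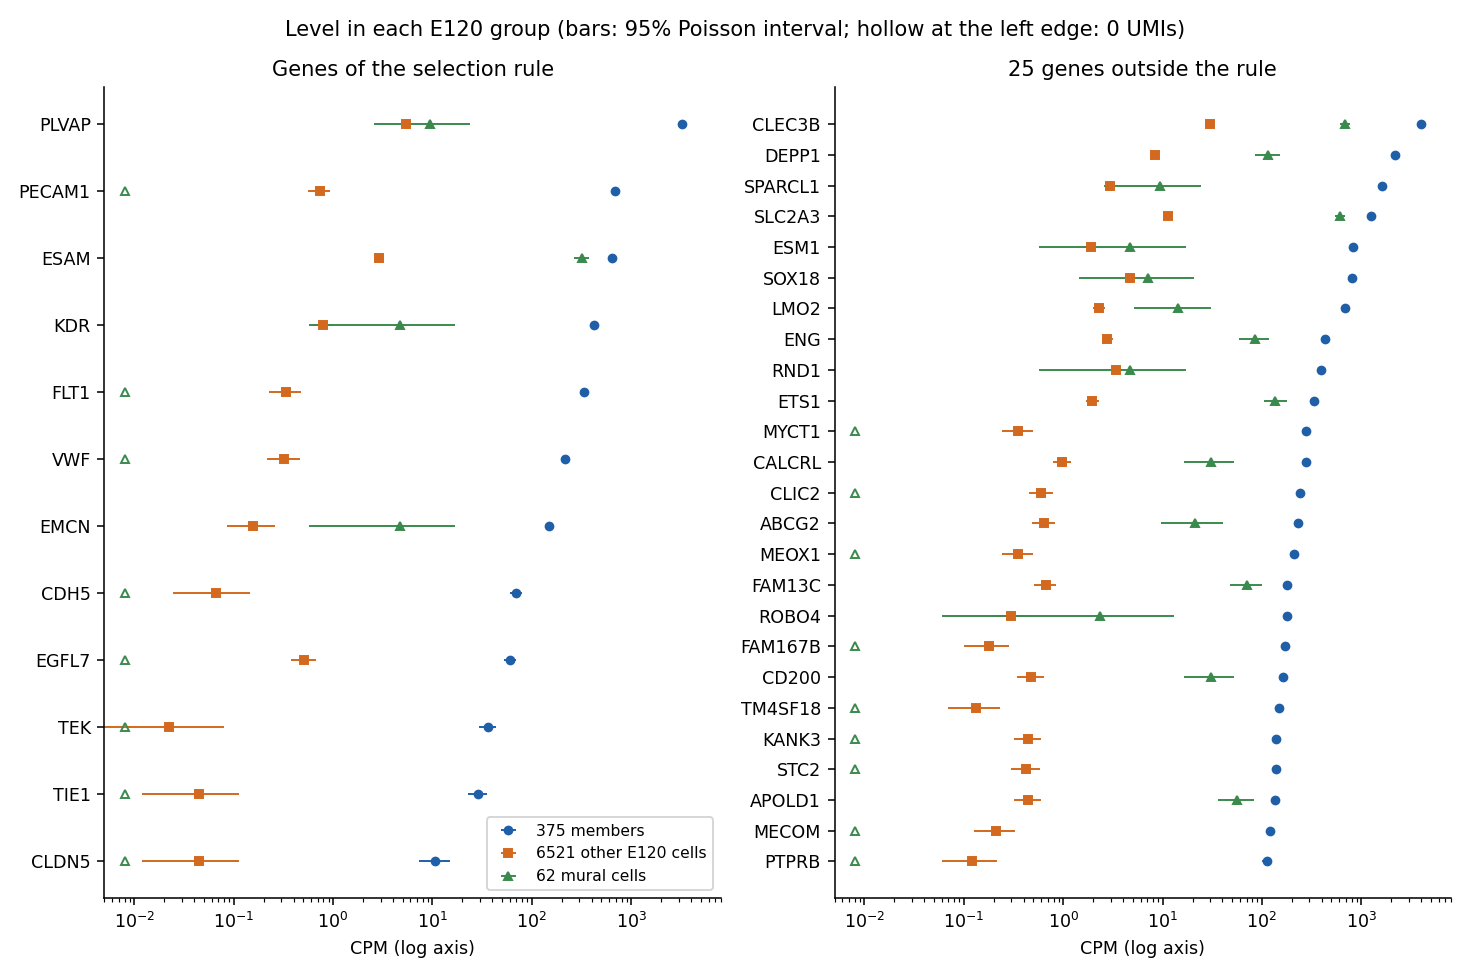
CPM (horizontal, log axis) of the rule genes (left) and the 25 genes outside the rule (right) in members, other E120 cells and mural cells of the same library; bars are 95% Poisson intervals and hollow symbols mark 0 UMIs. Members lie above both other groups for each gene, and mural cells come closest for ESAM (318 against 640 CPM) and SLC2A3.

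The same 25 genes were then read in the other 2 libraries, which had no part in naming them, although the cells there were taken by the same 12 genes. At E60, 23 of the 25 could be tested and all 23 were higher in cells meeting the rule than in the other E60 cells, where 16.3% of all tested genes were. Their median log2 ratio was 5.21 over the 25, beside 0.08 over all tested genes. At E90, 23 of 24 tested were higher, where 14.5% of all tested genes were; the exception was SOX18, at 681 CPM against 401 in the other E90 cells. FAM167B and STC2 could not be tested at E60, where they stood at 9.59 and 0.436 CPM in the cells meeting the rule.

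The lowest genes in members were epithelial. KRT14 and KRT17, keratins of the basal layer and outer root sheath, had 25.8 and 36.7 CPM in members against 569 and 607 CPM in the other E120 cells. The protease inhibitor CST6, LY6G6D and the epithelial metallothionein MT4 had 59.0, 44.8 and 30.0 CPM in members. All 12 tested genes of the epithelial list were lower in members, where 10.6% of all tested genes were. The list summed to 257 CPM against 1973. Without sub-cluster 4 the members' sum was 104 CPM.

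Hair keratin RNA was present in nearly all members. Over 9 hair keratin genes in the table the members' sum was 2909 CPM (2850 to 2970) against 13264 in the other E120 cells, and KRT35 and KRT85 supplied most of it, with 1374 and 1458 CPM. 372 of 375 members had a UMI of the list. A member's median share was 0.0750% of its UMIs, beside 0.0734% in mural cells, 0.0794% in the 237 dermal cells and 0.123% in all other E120 cells, so the median member was close to the other vessel-wall and mesenchymal cells of its library. The highest member reached 4.45%, and without sub-cluster 4 the sum was 792 CPM, below the 1062 CPM of mural cells. At E60 the list was at 0 UMIs in the cells meeting the rule.

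Inner root sheath genes, of which 8 are in the table, summed to 1987 CPM in members and 8080 in the other E120 cells. Mural cells had 1112 CPM of them and dermal cells 1273. Without sub-cluster 4 the members' sum was 626 CPM. Myeloid and dermal markers had lower sums in members than in the other E120 cells, where they were at 15.3 and 476 CPM. Mural markers did not, with 125 CPM in members and 111 in the other E120 cells. Of 11 mural genes RGS5, PDGFRB and CSPG4 were at 0 UMIs in members (473, 77.7 and 7.07 CPM in mural cells). The list summed to 125 CPM against 4296 in mural cells, which were chosen by that list. Higher than in the other E120 cells was ABCC9, a potassium channel subunit, at 81.8 CPM in members and 980 in mural cells. The 10 myeloid genes summed to 1.93 CPM with PTPRC and CSF1R at 0, and both lymphocyte genes in the table were at 0. Dermal genes summed to 146 CPM, of which DCN was 134, with PDGFRA at 0; the sum was 357 CPM in sub-cluster 4 and 40.5 to 55.8 in the others, and DCN was 32.9 CPM in sub-clusters 1 to 3. Only 2 members had at least 3 mural genes.

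Of the VEGF receptors, KDR and FLT1 are rule genes, high in members by selection, and FLT4, NRP1 and NRP2 were not used by the rule. KDR, the main signalling VEGF receptor, had 425 CPM (402 to 448) against 0.797 in the other E120 cells, and FLT1, which binds VEGF without strong signalling, had 336 CPM (316 to 357) against 0.332. FLT4, the receptor for VEGFC, had 53.8 CPM in members and the co-receptors NRP1 and NRP2 had 293 and 83.5 CPM, all 3 higher than in the other E120 cells. Of the 10 further VEGF genes in the table, 6 were tested and 4 were higher in members, with none lower. The shares of all tested genes were 23.3% higher and 10.6% lower.

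The ligands stood elsewhere or in both. VEGFA had 66.7 CPM in members (57.9 to 76.4), 285 CPM in dermal cells (260 to 311) and 50.9 in all other E120 cells, and it was not called. VEGFC, by contrast, had 50.3 CPM in members (42.7 to 58.8) against 0.122 in other cells, with 2.36 CPM in mural cells and 3.46 in dermal cells.

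Of the angiopoietin system, the receptors TEK and TIE1 are rule genes, so their levels in members were set by the selection. TEK, which binds angiopoietins, had 36.1 CPM in members and 0.0221 in other cells, its partner TIE1 had 28.7 CPM, and PTPRB, the phosphatase that restrains TEK, had 112 CPM. ANGPT1, the activating ligand, had 1.29 CPM in members, 63.6 in mural cells and 140 in dermal cells. ANGPT2, the context-dependent ligand, had 6.44 CPM in members (3.94 to 9.95) and 42.4 in mural cells (25.1 to 67.0).

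Sprouting genes were high, 7 of 8 tested being higher and none lower, beside 23.3% and 10.6% of all tested genes. Beside ESM1, the type IV collagen chains COL4A1 and COL4A2 had 1031 and 377 CPM against 12.1 and 5.81, and the chemokine receptor CXCR4 had 386 CPM against 15.5. CXCR4 was also high in mural cells, at 612 CPM. Its ligand CXCL12 had 203 CPM in dermal cells, 27.7 in members and 1.76 in cells of none of these classes. DLL4, the Notch ligand of leading cells, had 12.6 CPM against 0.0111, and ADM, the adrenomedullin gene, had 37.4 CPM against 30.5 and was not called.

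Notch genes were mixed. The ligands DLL1 and DLL4 were higher in members (132 CPM for DLL1 against 2.69), while JAG1, a ligand widely made in the follicle, had 192 CPM against 321 in other cells. NOTCH4, the endothelial receptor, had 15.1 CPM against 0.897, and NOTCH3, the mural receptor, was lower, at 19.3 CPM against 53.5. The target genes HES1 and HEY1 had 865 and 121 CPM against 243 and 17.3. In total, 5 of 9 tested Notch genes were higher and 1 was lower, beside 23.3% and 10.6% of all tested genes.

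BMP and TGF-beta genes included receptors and modulators above the rest of the library. Of the list, 8 of 13 tested were higher and 2 lower, beside 23.3% and 10.6% of all tested genes. The receptor ACVRL1 had 16.4 CPM, TGFBR2 had 19.98 and the inhibitory SMAD7 had 160, against 0.166, 0.332 and 31.9 in the other cells. The target genes ID1 and ID3 were not called, with 1409 and 948 CPM in members against 1773 and 1702. BMP4, a ligand, was lower in members, at 20.3 CPM against 72.9.

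G protein-coupled signalling genes were higher in members for 9 of 10 tested, beside 23.3% of all tested genes. RAMP2, the partner of CALCRL, had 1111 CPM against 63.4; F2R, the thrombin receptor, had 489 against 20.4 and LPAR6, a lysophosphatidic acid receptor, had 261 against 30.1. Haemostasis genes were higher for all 5 tested, among them TFPI2 at 721 CPM against 8.06, TFPI at 91.2 against 0.698 and coagulation factor F8 at 25.1 against 0.698. NOS3, the endothelial nitric oxide synthase, was at 3.22 CPM in members, under the level needed for testing.

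Basement membrane genes were higher for all 10 tested, in a contrast where 23.3% of all tested genes were higher and 10.6% lower. SPARC, a collagen-binding matrix protein, had 1659 CPM against 98.1 in the other cells, and the laminin chain LAMA4 had 102 against 1.26. The mural cells also had high levels, with SPARC at 3177 CPM and COL4A1 at 1498. Of 11 genes of the list tested against mural cells, 2 were higher in members and 0 lower. Over all genes tested in that contrast 14.2% were higher and 14.1% lower. Caveolar and lipid-handling genes were higher for all 8 tested, with CAV1 at 799 CPM against 10.2, CAVIN1 at 252 against 7.77 and CAVIN2 at 60.6 against 0.155. Junction genes were less uniform: 4 of 8 tested were higher, including JAM3 at 129 CPM against 2.74, and GJA1, a gap junction protein also of epithelium, was lower at 71.2 CPM against 180.

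Transcription factors of the vascular list were higher for 19 of 20 tested, where 23.3% of all tested genes were higher and 10.6% lower. KLF2, a factor induced by flow, had 1555 CPM (1511 to 1600) against 40.6, FLI1 had 139 against 2.16 and HHEX had 60.9 against 0.255. KLF4 was the one not called, at 417 against 256 CPM. Among secreted signals 7 of 15 tested were higher and 5 lower: IGF1 had 65.4 CPM against 5.71, with 256 in dermal cells, and the WNT potentiator RSPO3 and ligand WNT5A had 0.967 and 27.7 CPM against 18.2 and 77.0. PDGFB, the endothelial ligand that recruits pericytes, had only 5.80 CPM in members. Cell cycle genes gave 1 of 13 tested lower and none higher, and their sum was 766 CPM in members against 1048 in the other cells, but 241 CPM without sub-cluster 4.

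**Figure D3:**
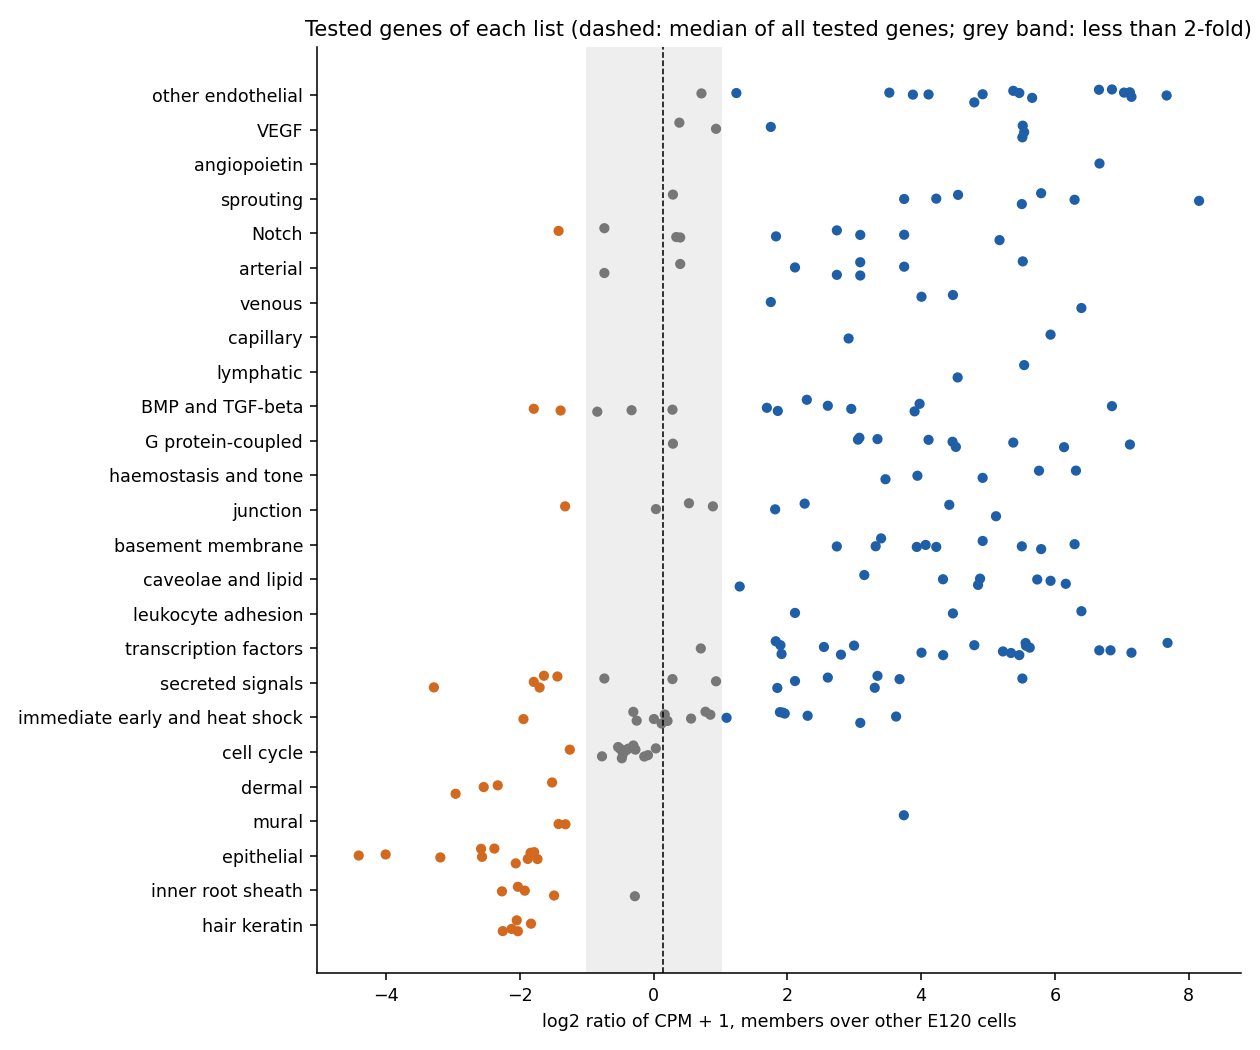
Log2 ratio of CPM + 1 between members and other E120 cells (horizontal) for each tested gene of each list (rows); points right of the grey band are higher and points left of it lower, and a gene in several lists is drawn in each. The dashed line is the median of all tested genes, 0.13; most genes of the vascular lists lie right of it, and the tested epithelial and hair keratin genes lie left of it.

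Against the 62 mural cells, which come from the same library and dissociation as the members, 905 of 6380 tested genes were higher in members (14.2%) and 897 lower (14.1%). All 12 rule genes were higher in members and 10 of 10 tested mural genes were lower, which the selection of both groups set. Mural cells had to miss the endothelial rule and hold at least 4 mural markers. Of the further endothelial genes, which neither selection used, 17 of 17 tested were higher in members. For KLF2 the values were 1555 and 382 CPM, and for RAMP2 1111 and 65.9. Not called in this contrast were NRP1 (293 and 236 CPM), F2R (489 and 384), HES1 (865 and 648) and MEF2C (237 and 181) although all 4 were higher in members than in the other E120 cells. NR2F2 was lower in members, at 79.3 CPM against 363.

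Most lymphatic genes were at or near 0 in the members, with FLT4 as the exception. It was seen in 117 of 375 members (31.2%) and 57 of 136 E60 cells (41.9%), and it gave 53.8 of the 94.1 CPM of the list in members. PROX1, the master factor of lymphatic endothelium, RELN and STAB2 were at 0 UMIs in 375 members, which allows a share of up to 0.800% of members with a UMI (3 of 375), and at E60 PROX1 was seen in 14 of 136 cells (10.3%, 5.74 to 16.7). CCL21, the lymphatic chemokine, was seen in 26 members (6.93%), at 22.9 CPM with 40.8% of its 71 UMIs in 2 cells, against 33 cells and 3198 CPM at E60. Cells with at least 3 of the 10 lymphatic genes in the table were 2 of 375 at E120 (0.533%), 0 of 58 at E90 and 31 of 136 at E60 (22.8%, 16.0 to 30.8). E60 cells were deeper, and at 2000 UMIs per cell the shares were 2.93% of members and 12.5% of E60 cells for CCL21, 0.800% and 11.03% for LYVE1, 2.40% and 31.6% for MMRN1, and 0% and 9.56% for RELN. The E60 cells came from whole skin, and the part of dissection in these shares was not tested.

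Members against the E60 cells meeting the rule gave 975 of 6063 tested genes higher at E120 (16.1%) and 555 lower (9.15%), with a median log2 ratio of 0.09. Both sets of cells were selected by the 12 rule genes, which conditions how those genes compare. Of them 8 were not called, PECAM1 for instance at 693 CPM and 477 at E60 and KDR at 425 and 637, and of 17 tested further endothelial genes 2 were higher at E120 and 1 was lower, shares not far from those of all tested genes. The rule genes called higher at E120 were EMCN (150 against 30.5 CPM), FLT1 (336 against 117) and TEK (36.1 against 13.5), and VWF was lower (216 against 829 CPM). E90 stood near E120 for EMCN (183 CPM) and VWF (199 CPM) and near E60 for FLT1 (119 CPM).

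Genes with the largest excess at E120 over E60 were, by the rule for naming, SELE, STC2, ESM1, BHLHE40, SNAPC1, CXCL8, IFIT1 and HBEGF. SELE, the adhesion molecule on which leukocytes roll, had 115 CPM at E120 (103 to 128) and 0 UMIs at E60 and at E90, at least 88.0-fold higher than the 3-count floor of the E60 cells. ESM1 had 825 CPM at E120, 99.5 at E90 (64.4 to 147) and 20.5 at E60 (15.1 to 27.2), so the 3 intervals do not overlap. STC2, a secreted glycoprotein, had 138 CPM at E120, 3.98 at E90 and 0.436 at E60. The repressor BHLHE40 had 353, 99.5 and 10.9 CPM in that order and the growth factor HBEGF had 157, 27.9 and 8.28.

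These genes were not spread evenly over the members. SELE was seen in 56 members (14.9%), with 24.1% of its 357 UMIs in 2 cells. CXCL8, the neutrophil chemokine, had 55.4 CPM at E120 against 1.31 at E60, in 28 members and with 34.3% of its UMIs in 2 cells. BHLHE40 was seen in 84.5% of members and was also present in the other E120 cells, at 109 CPM, as was SNAPC1 at 30.8 CPM beside 128 in members. Differences between the libraries that other E120 cells share were not removed from these ratios.

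Genes with the largest excess at E60 were PNOC, CCL21, RELN, LYVE1, MMRN1, FGL2, DPF1 and CCL8. PNOC, the nociceptin precursor, had 755 CPM at E60, was seen in 78 of 136 E60 cells (57.4%), and had 0 UMIs at E120, at least 781-fold lower there. LYVE1, the lymphatic hyaluronan receptor, had 296 CPM against 4.83 at E120, and MMRN1 had 407 against 9.99. Leaving out the 31 E60 cells with at least 3 lymphatic genes, an alternative chosen after seeing the data, left LYVE1 at 8.93 CPM and CCL21 at 5.95, under the 22.9 of E120, while PNOC stayed at 852 and CCL8 at 218. RELN was then at 0.595 CPM and MMRN1 at 129, so RELN and LYVE1 were no longer called and CCL21 turned direction. These 4 genes are on the list that picked the cells left out, so the filter itself lowered them. PNOC, CCL8, FGL2 and DPF1 are not on it. Of these, FGL2 fell from 69.3 to 23.2 CPM at E60 and DPF1 from 66.7 to 52.4, and both were still called lower at E120. CCL21 also turned when the rule was applied after thinning every cell to 2000 UMIs, with a log2 ratio of 0.80 in place of -7.07. The growth factor IGF1 turned too, with 65.4 CPM at E120, 153 in all E60 cells meeting the rule and 24.4 without the lymphatic ones.

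**Figure D4:**
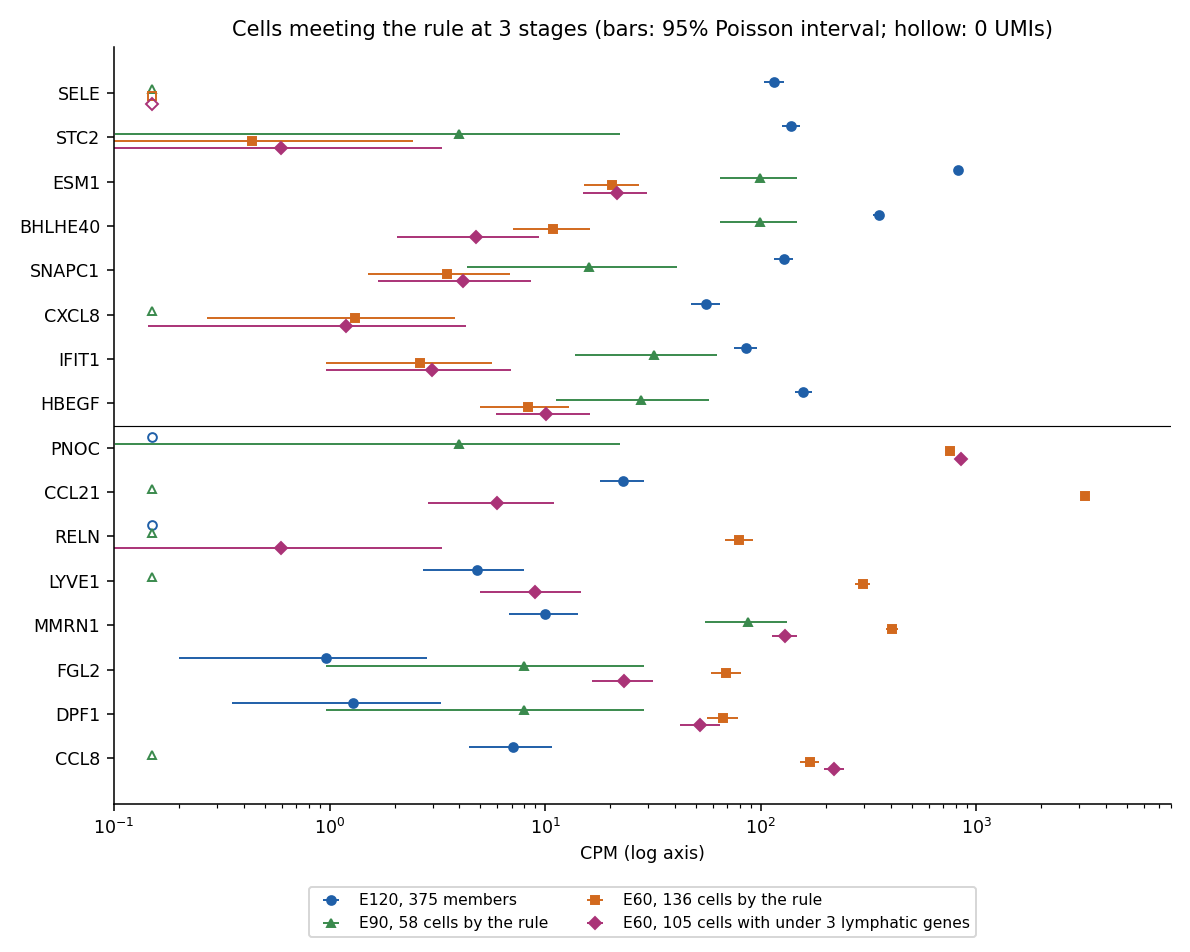
CPM (horizontal, log axis) of the 16 genes with the largest E120 to E60 differences, in E120 members, E90 and E60 cells meeting the rule, and E60 cells with under 3 lymphatic genes; bars are 95% Poisson intervals and hollow symbols mark 0 UMIs. For the upper 8 genes the E120 points lie right of all others. CCL21, RELN and LYVE1, which are among the genes that picked the cells left out, have the E60 point moved left by that filter. Of genes not among them, FGL2 also has its E60 point moved left and PNOC does not.

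Among the pathway lists, Notch genes leaned to E120: of 9 tested 5 were higher and 1 lower. Over all tested genes 16.1% were higher and 9.15% lower. HES1 had 865 CPM against 230, HEY1 121 against 36.2, JAG1 192 against 63.6, DLL1 132 against 63.2 and DLL4 12.6 against 1.31, and HES1 and JAG1 had 414 and 115 CPM at E90. The E90 cells meeting the rule carry 3121 CPM of epithelial genes, against 257 at E120 and 1.31 at E60, and 57 of the 58 have a KRT17 UMI; the part of this in E90 levels was not tested. RBPJ, the Notch effector, was lower at 51.2 against 106 CPM. VEGFC and VEGFA had 50.3 and 66.7 CPM at E120 against 5.23 and 7.84 at E60, and at E90 47.8 and 63.7. Both VEGF ligands were higher at E120 than at E60, and their E90 and E120 levels lay close together. HES1, HEY1, DLL1, DLL4 and VEGFC were also higher in members than in the other E120 cells. VEGFA was not called in that contrast, and JAG1 had a lower level in members. Differences between the libraries that other E120 cells share were not removed from these ratios either.

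Caveolar and fatty acid handling genes leaned to E60, with 4 of 8 tested lower at E120 and none higher, beside 9.15% and 16.1% of all tested genes. CD36, a fatty acid transporter of capillaries, had 80.6 CPM at E120, 446 at E90 and 934 at E60, and CAV1 had 799, 1007 and 1620. TFPI had 91.2 CPM at E120 against 488 at E60, and TGFBR3 12.2 against 125. None of these 4 depended on the lymphatic cells in direction; CD36 was at 1085 CPM in the remaining 105 E60 cells. Dermal genes moved with this comparison, summing to 146 CPM at E120, 2357 at E90 and 1885 at E60, with LUM at 540 CPM and DCN at 566 at E60; their part in other differences was not tested.

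The members divided into 4 sub-clusters, described here by the genes that lead them without a test, since the clustering used those genes. At Leiden resolution 0.3, sub-clusters 1 and 2 fell into 1 cluster of 258 cells, so the line between them depends on that setting. Sub-cluster 3, with 73 cells, carried arterial genes. HEY1 had 609 CPM there against 35.8, 2.66 and 17.5 in sub-clusters 1, 2 and 4, the ephrin ligand EFNB2 had 1628 against 861, 570 and 372, and the arterial connexin GJA5 had 27.9 CPM against 0, 0 and 1.03. DLL4 (48.3 CPM), the kinase gene BMX (35.3) and CLDN5 (44.6) were also highest there, and PLVAP was lowest, at 1157 CPM against 4876 in sub-cluster 1. CXCR4 (1861 CPM), MECOM (518), SOX18 (2221) and ESM1 (2704) were highest there as well, so genes of arterial and of sprouting endothelium peaked in the same sub-cluster.

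The clustering used these genes, so their presence in the same cells restates it and adds no support. Of the 96 members with a HEY1 UMI, 79 had CXCR4 (82.3%), 74 had ESM1 (77.1%) and 72 had MECOM (75%), while 7 had SELE and none had SELP; of all 375 members 113 had CXCR4, 167 ESM1 and 130 MECOM. IGFBP2 (529 CPM against 12.9 in the other members), SLC45A4 and the matrix protein CTHRC1 were further leading genes. The alpha globins HBAI and HBAII, near-identical copies whose counts are uncertain apart, stood at 1498 and 407 CPM, but 91.0% of the HBAI UMIs of all members came from 2 cells.

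Sub-cluster 2, with 122 cells, carried venous genes. SELE had 395 CPM there against 19.1, 9.28 and 40.0 in sub-clusters 1, 3 and 4, and SELP, the platelet selectin of venules, had 87.7 CPM against 0, 0 and 3.08. The venous factor NR2F2 had 161 CPM against 72.7, 20.4 and 54.4, and the venular chemokine receptor ACKR1 14.6 CPM. TFPI2 (1826 CPM), RND1 (824) and CD36 (170) were highest in the same sub-cluster, and GAP43 and the NF-kappaB inhibitor NFKBIA had 146 and 320 CPM there against 17.9 and 84.2 in the other members. Detection was partial, with SELE in 29.5% and ACKR1 in 8.20% of these cells, and 14 of the 20 members with SELP also had SELE.

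Sub-cluster 1, with 123 cells, had the highest levels of KDR, FLT1 and KLF2. KDR had 767 CPM against 350, 409 and 197 in sub-clusters 2, 3 and 4, FLT1 had 560 and KLF2 had 2463 against 1656, 1038 and 981. Its leading genes were ABCC9 (184 CPM against 44.2 in the other members), CSRP2, CABP1, SNAI1, STC2 (273) and HBEGF (304). HES1 was highest there, at 1377 CPM, and DLL1 had 206 CPM against 31.6 in sub-cluster 3, the opposite order to DLL4. The mural marker RGS5 was at 0 UMIs in all 4 sub-clusters.

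Sub-cluster 4, with 57 cells, stood apart in quality. Its cells had a median of 16342 UMIs against 6014.5 to 6392 in the others, 28 of them were called doublets, and hair keratins summed to 7540 CPM, cell cycle genes to 1914 CPM and the desmosomal DSP to 383 CPM. The 28 called doublets had 8270 CPM of hair keratin and a rule-gene sum of 2085 CPM, and the 29 not called had 6510 and 4197 CPM. Inner root sheath genes summed to 9165 CPM in the 29 not called and 1984 CPM in the 28 called. Their sum was 626 CPM in sub-clusters 1 to 3 and 8080 CPM in the other E120 cells. TOP2A, the mitotic topoisomerase, had 742 CPM in those not called and 214 in those called, against 14.1 CPM in sub-clusters 1 to 3. Cell cycle genes in the members were thus at 1914 CPM in sub-cluster 4 and at 241 CPM in the other 318 members, and the part of mixed droplets in this was not tested beyond the call.

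**Figure D5:**
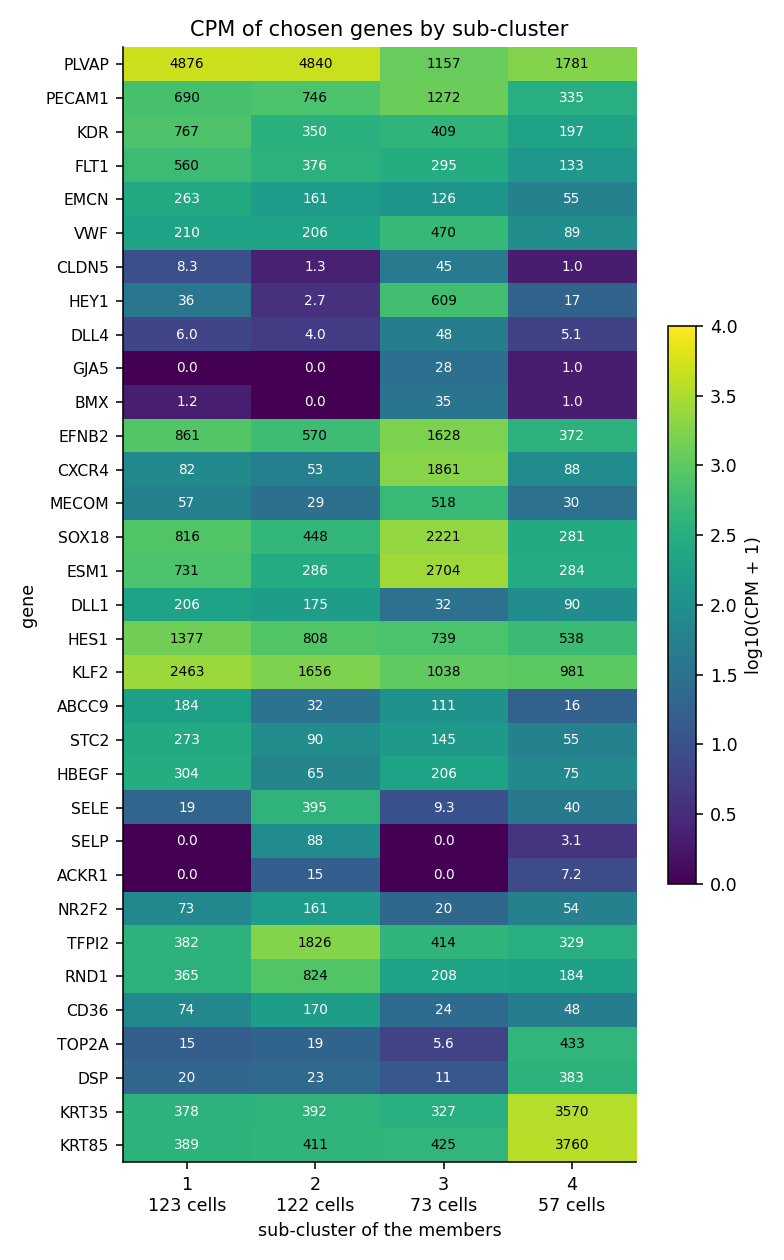
CPM of chosen genes (rows, number in each cell, colour on a log10 scale) in the 4 sub-clusters of members (columns). HEY1, GJA5, CXCR4 and MECOM are highest in sub-cluster 3, SELE, SELP and ACKR1 in sub-cluster 2, KDR and KLF2 in sub-cluster 1, and TOP2A, DSP, KRT35 and KRT85 in sub-cluster 4.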

How the data were processed

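Values were deposited by the authors as 1 table of natural log values, which the values themselves show to be the natural log of 1 plus UMI counts scaled to 10000 per cell. Cell Ranger 3.0.2 was used per the submitters' processing notes; the genome build, annotation and cell filters are not given in the sources used here. UMI counts were recovered by dividing each back-transformed value by the smallest of its cell, and 100% came out whole within 0.01. The table holds 16739 genes, of which 12709 carry symbols; no column was unused (0).

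Counts were summed per group, with exact Poisson intervals at 95% and Clopper-Pearson intervals for shares. Since a stage is 1 library, cells gave no test. Ratios used a pseudocount of 1 CPM and a floor of 3 counts stood in for 0. Text names the rule genes, the 25 largest ratios over other E120 cells at 100 CPM or more, the 5 lowest, the 8 largest differences from E60 each way at 50 CPM or more, and the 6 leading genes of each sub-cluster. Other list genes were named for their role after their values were seen. Members and gene lists were chosen with earlier results of these data known. Doublets were scored per library against simulated pairs (scikit-learn 1.9.0) and kept; at E90 only 0.0577% of cells were called, so that call did not work there. Sub-clusters came from 1500 variable genes, 20 components and 15 neighbours by Leiden at resolution 0.5 (Python 3.11.15 with scipy 1.17.1 and numpy 2.4.6; leidenalg 0.10.2). The comparison script was tested on simulated data.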

Additional observations from a re-analysis of the deposited data

How the results depend on the processing

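All 25 leading genes outside the rule were called higher than in other E120 cells under every setting tried, but with a pseudocount of 10 CPM only 12 of them stayed among the 25 largest ratios, against 23 to 25 under the other settings. The members' share of E120 cells was 4.83% with at least 6 rule genes, 4.13% after thinning and 4.61% without sub-cluster 4. The hair keratin level of members was 3062 CPM with at least 3 rule genes, 2603 with 5, 2713 with 6, 1889 after thinning, 1704 without called doublets, 2775 without members with 3 mural or myeloid genes, 555 without the 25% of members highest in hair keratin, 1527 with each cell weighing the same and 792 without sub-cluster 4. With a pseudocount of 10 CPM, 379 genes were lower in members, and 478 were higher and 331 lower than at E60. A filter at 50 CPM gave 601 higher and 269 lower, and 303 and 206 against E60; no filter gave 2336 and 1241, and 2099 and 1136. These counts follow from the number of genes tested or the shrinkage of the ratio. Without sub-cluster 4, 1051 genes were lower. The E120 over E60 log2 ratio of CCL21 was 0.80 with the rule applied after thinning and 1.78 without lymphatic E60 cells; for the former the cause was not tested. Leiden resolution 1 gave 7 sub-clusters and kept 55.7% of sub-cluster 2 together; resolution 0.3 gave 3 and joined sub-clusters 1 and 2. Leaving out sub-cluster 4 and the lymphatic cells were alternatives chosen after seeing the data. No paired analysis was possible because each stage is 1 library. Depth limits E90 most, where 3 counts are 11.9 CPM.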

Other observations

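Interferon-stimulated genes are a list of 24 symbols, 19 of them in the table, chosen after their values were seen. All 12 tested were higher in members than in other E120 cells, beside 23.3% of all tested genes. The list summed to 1291 CPM in members, 57.4 in other E120 cells, 1896 in mural cells and 1491 in dermal cells of the same library. The sum was 324 CPM in E60 and 370 CPM in E90 cells meeting the endothelial rule. Of the same 12 genes 10 were higher at E120 than at E60 with 0 lower, beside 16.1% and 9.15% of all tested genes. IFI6, an interferon-induced mitochondrial protein, had 825 CPM in members, 36.5 in other E120 cells, 1627 in mural cells and 1323 in dermal cells. It supplied most of each of these sums and set their order among members, mural and dermal cells. At E60 IFI6 had 152 CPM in cells meeting the rule and 338 in the other E60 cells. IFIT1, an antiviral RNA-binding protein, had 85.4 CPM in members, 73.0 in mural cells, 15.6 in dermal cells and 0.631 in other E120 cells. The sums in sub-clusters 1 to 4 were 1714, 1505, 1437 and 681 CPM. CXCL10, an interferon-induced chemokine, was not called between stages, with 27.4 CPM in members and 51.4 at E60, and had 94.4 CPM in sub-cluster 2.

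Immediate early and heat shock genes are ones that dissociation can induce. In members 7 of 17 tested were higher than in other E120 cells and 1 was lower, beside 23.3% and 10.6% of all tested genes. The list summed to 18888 CPM in members, 16322 in other E120 cells, 17841 at E60 and 19995 at E90.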
